A study of Mus musculus with 64 samples.

Results

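Potassium channel genes were taken as every gene of the deposited count tables whose mouse symbol starts with Kcn, apart from Kcnj8 and Kcnj13. The rule found 96 genes among 27179 gene identifiers, 92 of them protein-coding, and all 96 had at least 1 count in some mouse. The 76 genes with a mean level of at least 1 CPM (counts scaled to 1 M counts per library, with M for mega) are described here, and 20 lay under that level. The genome-wide tests kept 83 of the 96, which are the 76 described genes and 7 of the 20 lower ones, and 13 were not tested.

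The RNA came from striatum punches of 32 mice on a C57BL/6NJ background. In 16 mice, 8 males and 8 females, the Cyfip2 genotype was N/- and the labels call the mice binge-resistant, and in the other 16, again 8 males and 8 females, it was N/N and they are called binge-prone. The N allele is the Cyfip2 allele of the C57BL/6N strain, which carries a missense variant, and the minus stands for a null copy, so all mice carry at least 1 N copy and no group carries the allele of C57BL/6J mice. All were 82 to 84 days old and were dissected on Day 24, straight after 5 min on the elevated plus maze. The labels name no further treatment, so any difference in handling between animals of 1 genotype cannot be seen here. Cyfip2 itself stood at 511 to 648 CPM in N/- mice and at 927 to 1279 CPM in N/N mice.

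Summed counts per mouse were 28.8 to 33.8 M, so 1 CPM stands for about 28.8 counts in the smallest library. The sequencing lanes split the mice into batch A (10 N/- and 6 N/N animals) and batch B (6 N/- and 10 N/N animals), and no cage held mice of both. Mouse 3, labelled as an N/N female, had Xist at 36 counts, against its label. Mouse 12, an N/- female, had the highest share of mitochondrial counts, 10.4%. Results were recomputed without each of these mice. Defining striatal markers such as Ppp1r1b (901 to 2128 CPM) and Penk (857 to 1985 CPM) were high in all 32 libraries.

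Potassium channels let potassium leave or enter a neuron and so set its resting potential, its threshold and the shape and rate of its spikes. Inward rectifiers hold the striatal projection neuron at a very negative resting potential, A-type channels of the Kcnd and Kcna families with their Kcnip and Kcnab partners delay firing, and Kcnq channels carry the M current that acetylcholine suppresses. G protein-gated inward rectifiers, formed by Kcnj3, Kcnj6, Kcnj9 and Kcnj5 products, are opened by receptors coupled to Gi proteins, and Kcnc channels repolarise fast-spiking neurons.

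Of the described genes, 74 had an exon length, from which a level per length in RPKM (CPM per kilobase of exon) was computed. Kcnj4, an inward rectifier that is enriched in forebrain neurons, had the highest level per length, 96.3 ± 8.55 RPKM (SD, n = 32). It was followed by Kcnab2 (73.3 ± 5.39 RPKM) and Kcnab1 (55.6 ± 8.29 RPKM), which encode cytoplasmic beta subunits of Kv1 channels. Next came Kcna1, a Kv1 pore subunit found on axons, at 50.8 ± 4.51 RPKM and the two-pore leak channel gene Kcnk1 at 44.1 ± 4.57 RPKM (SD, n = 32). The lowest were Kcnj14 at 0.409 ± 0.112, Kcnb2 at 0.392 ± 0.0534 and Kcnk10 at 0.360 ± 0.0614 RPKM (SD, n = 32). These 3 differ by less than the largest of their spreads, so their order carries no weight.

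**Figure D1:**
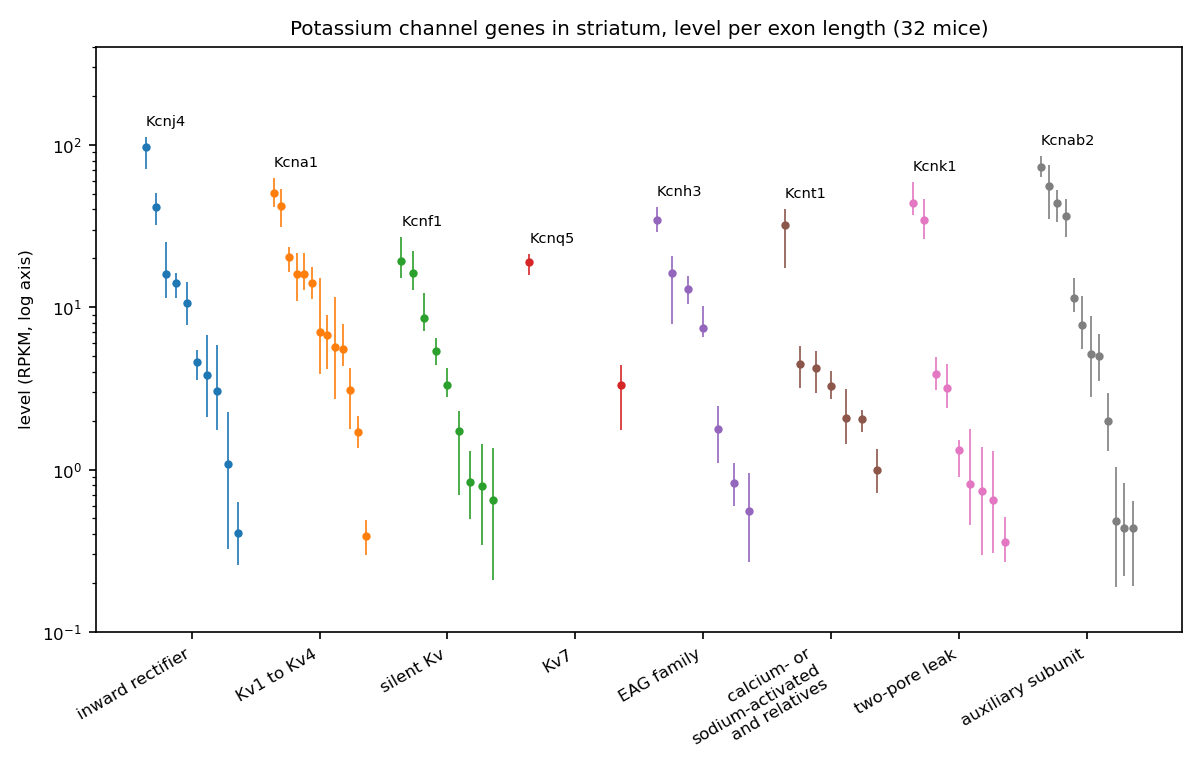
Level per exon length in RPKM on a log axis for 69 described genes in 8 classes, 1 point per gene at the mean of 32 mice, with a line from the lowest to the highest mouse. Each class spans a wide range, and Kcnj4 has the highest level, 96.3 RPKM.

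Among the 10 described inward rectifiers, levels per length below Kcnj4 ran through Kcnj10, the main potassium channel of astrocytes, at 41.3 ± 4.24 RPKM, to Kcnj9 at 16.0 ± 3.09 RPKM (SD, n = 32). Kcnj11, the pore of the ATP-sensitive channel, followed at 14 ± 0.853 RPKM, and Kcnj2, a second strong inward rectifier, at 10.6 ± 1.56 RPKM (SD, n = 32). Of the G protein-gated subunits, Kcnj9 was well above Kcnj3 at 3.04 ± 0.877 RPKM and Kcnj6 at 1.08 ± 0.472 RPKM (SD, n = 32). The remaining partner Kcnj5 was just under the limit for description, at 0.941 CPM, as were Kcnh8 at 0.775 CPM and Kcnk5 at 0.747 CPM.

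The 15 described Kv1 to Kv4 pore genes were led by Kcna1 and by Kcnd2, the A-type pore subunit of projection neurons, at 41.8 ± 4.45 RPKM, with Kcna2 at 20.4 ± 1.95 RPKM (SD, n = 32). Kcnd2 was far above its relative Kcnd3, at 5.52 ± 0.926 RPKM. Its auxiliary subunits Kcnip3 (43.6 ± 4.03 RPKM) and Kcnip2 (36.7 ± 4.37 RPKM) stood at a similar level to Kcnd2, while Kcnip1 was at 1.99 ± 0.496 RPKM (SD, n = 32). Of the Kcnc genes, Kcnc1 (14.1 ± 1.41 RPKM) was above Kcnc4 (6.99 ± 2.37 RPKM) and Kcnc2 (5.66 ± 1.91 RPKM).

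In the Kv7 family Kcnq5 (18.9 ± 1.54 RPKM) stood above Kcnq3 (3.31 ± 0.584 RPKM), its partner in the M current (SD, n = 32). Kcnh3 led the EAG family at 34.2 ± 2.68 RPKM, and Kcnt1, a sodium-activated channel, led the calcium- and sodium-activated channels at 32.1 ± 5.01 RPKM. The large-conductance calcium-activated channel Kcnma1 stood at 4.47 ± 0.536 RPKM, its neuronal auxiliary subunit Kcnmb4 at 7.80 ± 1.28 RPKM and the small-conductance channel Kcnn3 at 4.21 ± 0.592 RPKM (SD, n = 32). Counts of Kcnmb4 and of the overlapping noncoding genes, Kcnmb4os2 at 1.06 CPM and Kcnq1ot1 at 21.6 CPM, are uncertain, since no source at hand states whether counting used strand.

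Within groups, potassium channel genes spread widely between mice. The SD of log2 CPM within the 4 genotype and sex groups had a median of 0.21 over the 76 described genes, against 0.15 over all tested genes with at least 1 CPM. It ran from 0.09 for Kcnj11 to 0.62 for Kcnj6, with Kcng4 and Kcng2, which encode silent modifier subunits, at 0.54 each. Kcnj6 had 2.46, 9.21 and 17.3 CPM as the lowest, median and highest of the N/- mice, and 4.39, 6.73 and 10.7 CPM in N/N mice. Its extremes were both N/- mice of batch A, mouse 16 at the low end and mouse 4 at the high end.

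To show the start regions of genes that moved in opposite directions between mice, as described further on, the promoter windows of Kcnj6, Kcnj3, Kcnj4 and Kcnd2 are given. Each runs from 250 bases before to 50 bases after the start, on GRCm38.p6 as in the RefSeq table, 5′ to 3′ on the gene's strand. The Kcnj3 and Kcnj4 windows lie inside the full annotated span of the gene. Capitals mark 4 short motifs on either strand, the core TGACG of the cyclic AMP response element, the E-box CAGATG, the GC box GGGCGG and the TATA box TATAAA.
Kcnj6 (chr16:94997647-94997946, minus strand): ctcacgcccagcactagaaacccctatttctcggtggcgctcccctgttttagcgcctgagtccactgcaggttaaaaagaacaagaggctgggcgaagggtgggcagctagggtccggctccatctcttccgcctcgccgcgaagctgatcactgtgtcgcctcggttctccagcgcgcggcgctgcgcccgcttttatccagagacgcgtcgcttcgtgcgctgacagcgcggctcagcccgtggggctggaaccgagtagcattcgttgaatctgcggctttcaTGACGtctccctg
Kcnj3 (chr2:55435720-55436019, plus strand): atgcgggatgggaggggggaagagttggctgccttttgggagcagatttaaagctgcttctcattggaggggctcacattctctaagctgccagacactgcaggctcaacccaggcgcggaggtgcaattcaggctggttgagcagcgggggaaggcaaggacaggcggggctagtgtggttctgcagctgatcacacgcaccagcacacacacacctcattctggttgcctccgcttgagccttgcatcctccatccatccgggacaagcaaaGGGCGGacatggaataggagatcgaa
Kcnj4 (chr15:79505192-79505491, minus strand): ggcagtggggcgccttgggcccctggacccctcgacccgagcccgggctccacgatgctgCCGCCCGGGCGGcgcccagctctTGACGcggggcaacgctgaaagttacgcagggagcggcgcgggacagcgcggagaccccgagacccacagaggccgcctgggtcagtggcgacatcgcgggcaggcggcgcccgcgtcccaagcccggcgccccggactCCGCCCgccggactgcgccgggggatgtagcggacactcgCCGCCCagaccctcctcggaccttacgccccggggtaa
Kcnd2 (chr6:21215096-21215395, plus strand): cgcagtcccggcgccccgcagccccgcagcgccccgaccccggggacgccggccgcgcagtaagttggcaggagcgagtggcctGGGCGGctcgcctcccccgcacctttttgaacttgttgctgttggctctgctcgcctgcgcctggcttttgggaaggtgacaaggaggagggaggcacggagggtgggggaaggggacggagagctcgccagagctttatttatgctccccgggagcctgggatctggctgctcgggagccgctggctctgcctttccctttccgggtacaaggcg
The G and C content of these windows was 62.0% for Kcnj6, 57.7% for Kcnj3, 76% for Kcnj4 and 68.7% for Kcnd2. A promoter window was at hand for 54 of the 76 described genes. The GC box was in 30 of them (55.6%), against 35.9% of all 27025 promoter windows, the cyclic AMP response element core in 14 (25.9%, against 21%), the E-box in 8 (14.8%, against 17.2%) and the TATA box in 1 (1.85%, against 14.2%). The median G and C content was 61.8% over the 54 windows and 52.7% over all 27025, and the motif shares were not adjusted for it. A match says only that these letters are present.

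The genotype comparison asked which transcripts differ when 1 of the Cyfip2 copies is null. No described potassium channel gene passed the 0.05 limit on adjusted p in the edgeR quasi-likelihood F test, adjusted after Benjamini and Hochberg over 16702 genes, where 2 genes in all passed (0.012%). The lowest adjusted p of a described gene was 0.758. DESeq2 and limma voom also called 0 of the described genes. At an unadjusted p under 0.05 there were 14 of the 76, all higher in N/- mice, against 6.23% of all tested genes in either direction and 3.87% higher in N/- mice. The log2 fold change was above 0 in 47 described genes and below 0 in 29, with a median of 0.05, against a median of -0.0038 over all tested genes.

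**Figure D2:**
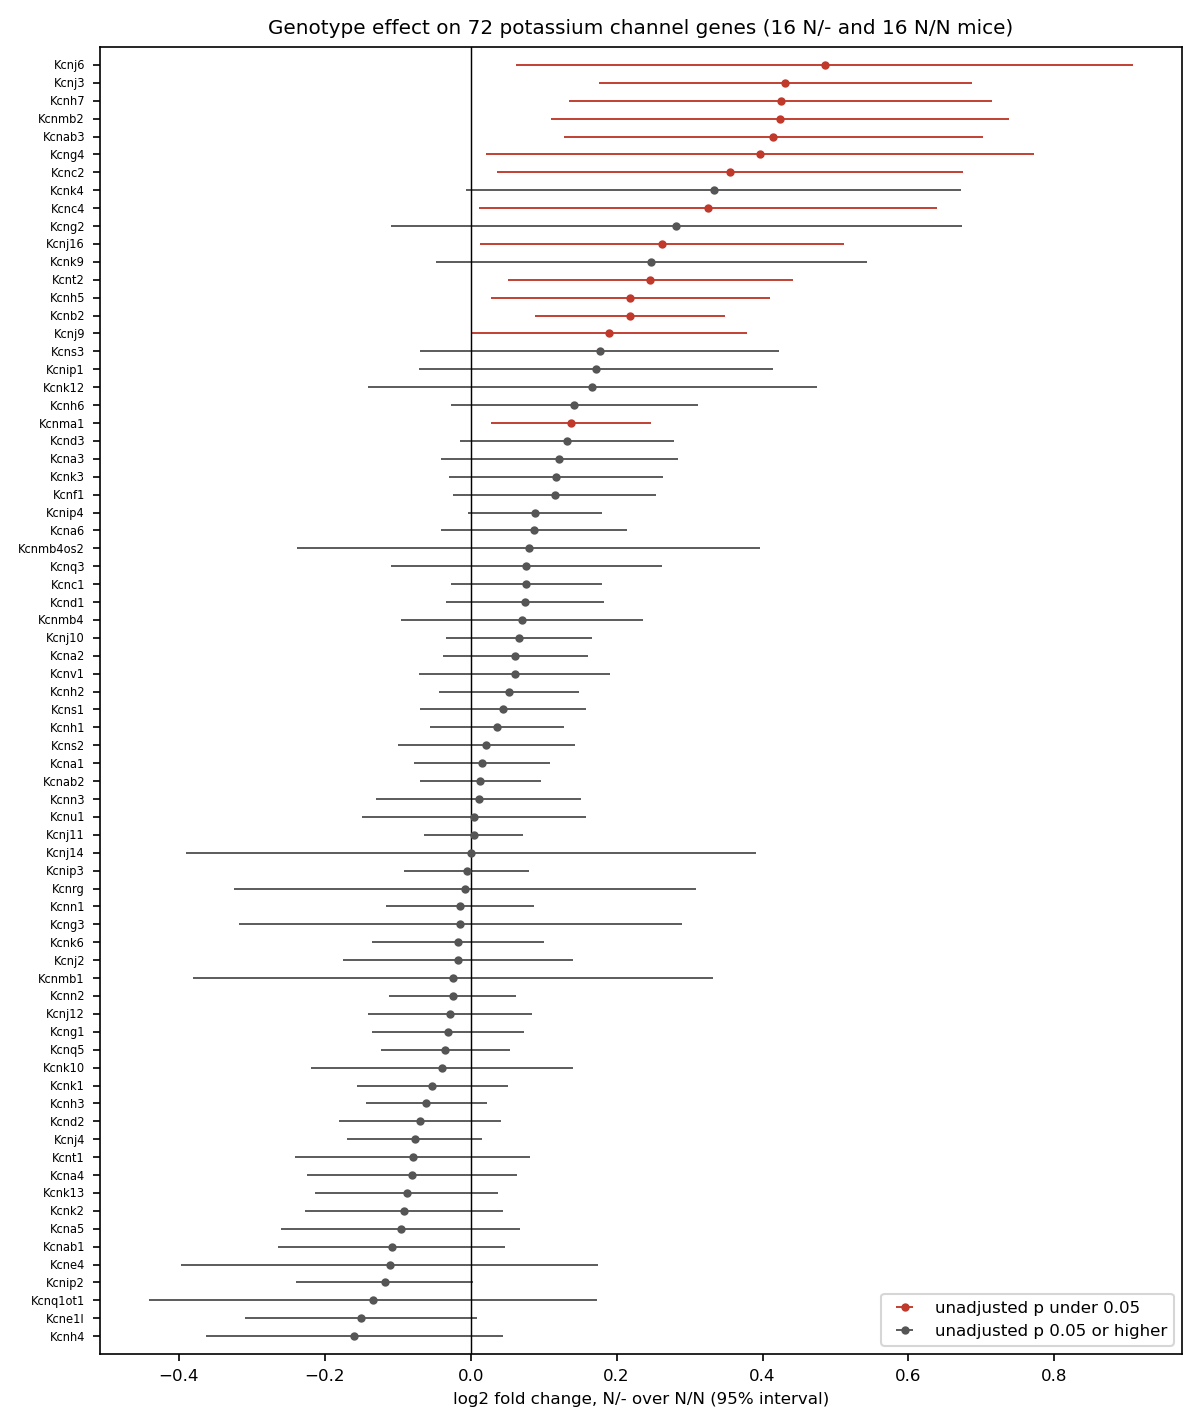
Log2 fold change, N/- over N/N, with its 95% interval for 72 of the described genes, 16 mice per genotype. The 14 genes in red have an unadjusted p under 0.05, all lie above 0, and none passed the adjustment.

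At that level DESeq2 gave 15 described genes higher in N/- mice and 0 lower, and limma voom 11 higher and 2 lower. The shares of all genes in these 2 tools are not given here, so these counts are not set against a background. The 14 genes were spread over the classes, with 4 of 10 inward rectifiers, 3 of 15 Kv1 to Kv4 genes, 2 of 7 EAG genes, 2 of 12 auxiliary subunits, 2 of 7 calcium- or sodium-activated channels and 1 of 9 silent subunits. None of the 9 two-pore leak genes and none of the 4 Kv7 genes was among them. They lie on many chromosomes, and Kcnab3 and Kcnj16 are on chromosome 11, which also carries Cyfip2 and holds 8 described genes.

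Of the G protein-gated inward rectifiers, Kcnj3 (Entrez 16519, chromosome 2, 55411798 to 55598145, GRCm38.p6) had 9.14, 18 and 30.6 CPM as the lowest, median and highest of the N/- mice, and 9.31, 14.5 and 18.8 CPM in N/N mice. The groups overlapped, and 6 N/- mice lay above all N/N mice and 1 below all of them. Its log2 fold change was 0.43 (SE 0.13, adjusted p 0.758 in the edgeR quasi-likelihood F test). It was 0.57 (SE 0.24) among batch A mice and 0.34 (SE 0.08) among batch B mice.

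Kcnj6 (Entrez 16522, chromosome 16, 94744980 to 94997696) had a log2 fold change of 0.49 (SE 0.21), the largest of the described genes, and its values by mouse are given above. Kcnj9 (Entrez 16524, chromosome 1, 172320508 to 172329322) had 48.6, 76.5 and 108 CPM as the lowest, median and highest of the N/- mice, and 49.6, 64.7 and 81.5 CPM in N/N mice, a log2 fold change of 0.19 (SE 0.09). Both overlapped between the genotypes, with 6 N/- mice for Kcnj6 and 5 for Kcnj9 above every N/N mouse. In batch B alone the log2 fold change was 0.43 (SE 0.14) for Kcnj6 and 0.25 (SE 0.07) for Kcnj9. Kcnj16, which forms heteromers with Kcnj10, had 16.5 ± 4.99 CPM in N/- and 13.4 ± 2.13 CPM in N/N mice (SD, n = 16 each), with a log2 fold change of 0.49 (SE 0.20) among batch A mice and 0.03 (SE 0.10) among batch B mice.

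Kcnb2, a delayed rectifier of the Kv2 group (Entrez 98741, chromosome 1, 15286925 to 15723751), had 5.07, 6.40 and 7.41 CPM as the lowest, median and highest of the N/- mice, and 4.54, 5.62 and 6.65 CPM in N/N mice. In all, 7 N/- mice lay above every N/N mouse and 6 N/N mice below every N/- mouse. The log2 fold change came to 0.22 (SE 0.06), 0.32 (SE 0.10) among batch A mice and 0.11 (SE 0.08) among batch B mice.

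Kcnab3, the third Kv1 beta subunit, had 8.84, 16.1 and 25.1 CPM as the lowest, median and highest of the N/- mice, and 8.05, 12.4 and 21.1 CPM in N/N mice, a log2 fold change of 0.41 (SE 0.14). It was 0.38 (SE 0.25) among batch A mice and 0.53 (SE 0.11) among batch B mice. Kcnh7, an ERG-type channel, had 4.10, 9.91 and 14.5 CPM in N/- mice against 4.14, 7.44 and 10.3 CPM in N/N mice, a log2 fold change of 0.42 (SE 0.14), with 0.44 (SE 0.25) among batch A mice and 0.41 (SE 0.14) among batch B mice. Both genes overlapped between the genotypes, with 3 N/- mice above every N/N mouse for Kcnab3 and 7 for Kcnh7. Kcnmb2, an inactivating auxiliary subunit of Kcnma1 channels, was near the detection limit used here, with 0.784, 1.49 and 2.59 CPM in N/- mice against 0.692, 1.16 and 1.49 CPM in N/N mice. In 8 N/- mice Kcnmb2 lay above every N/N mouse, and its log2 fold change was 0.42 (SE 0.15). Kcnma1 itself had 79.5 ± 8.89 CPM in N/- and 72.1 ± 7.92 CPM in N/N mice (SD, n = 16 each), a log2 fold change of 0.14 (SE 0.05), and 7 N/- mice were above every N/N mouse.

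**Figure D3:**
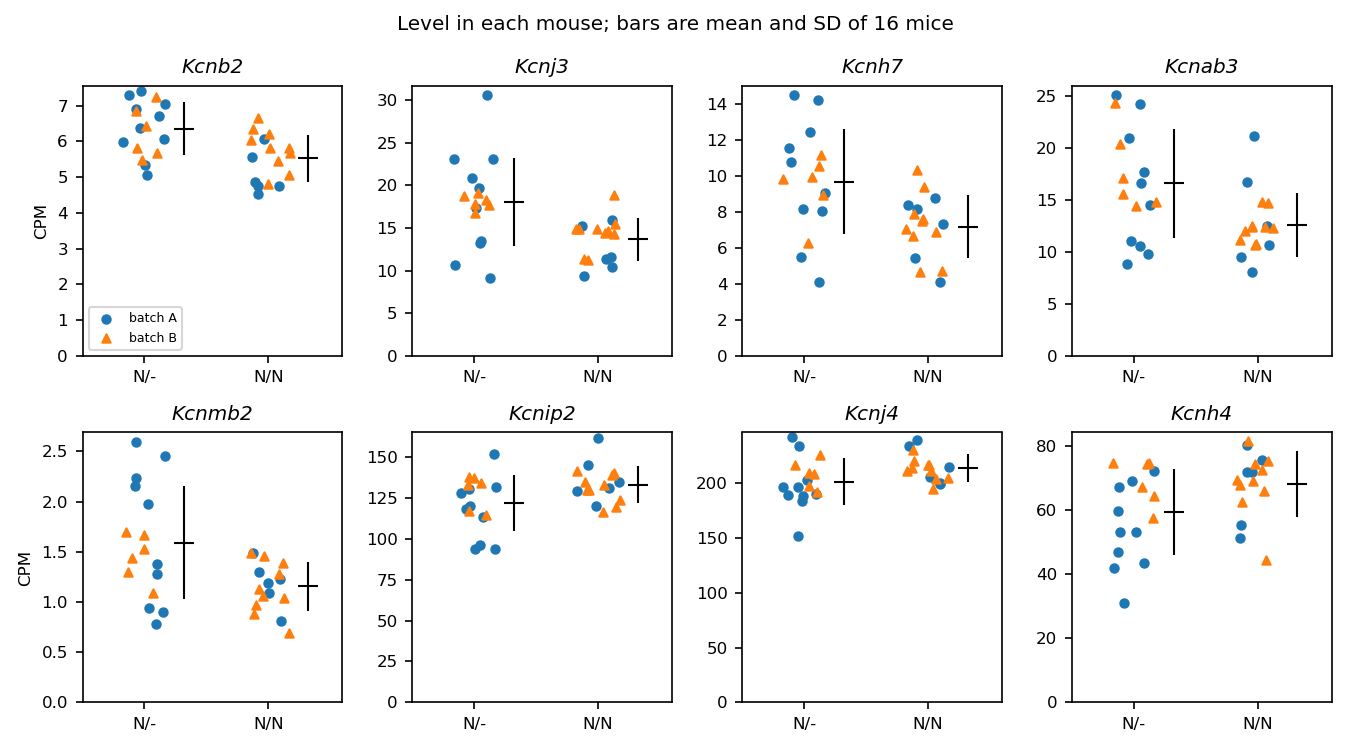
CPM of 8 genes in each of 32 mice, N/- left of N/N, with circles for batch A, triangles for batch B and the mean and SD of 16 mice beside them. The genotypes overlap in each of the 8.

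The other genes at an unadjusted p under 0.05 were Kcnc2 (log2 fold change 0.36, SE 0.16) and Kcnc4 (0.32, SE 0.15), Kv3 pore genes, and Kcng4 (0.40, SE 0.18), a silent subunit. Further ones were Kcnt2, a sodium-activated channel (0.25, SE 0.10), and Kcnh5, an EAG channel (0.22, SE 0.09). All 14 log2 fold changes were above 0 in each batch and in each sex. The 14 were picked over the same mice, so a shared sign in parts of them was likely beforehand and is no separate evidence. In the edgeR test, 4 of the 14 had an unadjusted p under 0.05 in batch A only and 10 in batch B only. The N/- mice spread more than the N/N mice in several of these genes: Kcnc2 had 45.6 ± 16.4 CPM in N/- and 35.1 ± 7.52 CPM in N/N mice, and Kcnc4 28.8 ± 10.4 CPM in N/- and 22.5 ± 5.14 CPM in N/N mice (SD, n = 16 each).

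In the edgeR fit over all 32 mice, no described gene was lower in N/- mice at an unadjusted p under 0.05. Among batch A mice alone Kcnh3, Kcnh4 and Kcnip2 were, at p of 0.022, 0.042 and 0.039 in the same edgeR test, and none passed the adjustment there. Over all mice, the 5 with the smallest p on that side were Kcnip2, Kcne1l, Kcnj4, Kcnh4 and Kcnh3. Kcnip2, the auxiliary subunit that speeds the surface transport of Kcnd channels, had 93.5, 124 and 152 CPM as the lowest, median and highest of the N/- mice, and 116, 132 and 161 CPM in N/N mice. The log2 fold change came to -0.12 (SE 0.06, 95% interval -0.24 to 0.0033), with -0.22 (SE 0.10) among batch A mice and -0.02 (SE 0.05) among batch B mice. Kcnj4 (Entrez 16520, chromosome 15, 79480226 to 79512511) had 201.1 ± 21.5 CPM in N/- and 213 ± 12.6 CPM in N/N mice (SD, n = 16 each), a log2 fold change of -0.08 (SE 0.05). Kcnh4, an ELK-type channel, had 59.5 ± 13.4 CPM in N/- and 68.2 ± 10.3 CPM in N/N mice (SD, n = 16 each). Its log2 fold change was -0.35 (SE 0.16) among batch A mice and 0.0040 (SE 0.09) among batch B mice. Kcne1l, a small accessory subunit on the X chromosome, stood at -0.15 (SE 0.08) and Kcnh3 at -0.06 (SE 0.04).

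The other genes listed by role for this tissue did not pass either. The log2 fold change was -0.02 (SE 0.08) for Kcnj2, 0.07 (SE 0.05) for Kcnj10, 0.0039 (SE 0.03) for Kcnj11, 0.02 (SE 0.05) for Kcna1, 0.06 (SE 0.05) for Kcna2, -0.08 (SE 0.07) for Kcna4 and -0.11 (SE 0.08) for Kcnab1. For Kcnd2 (Entrez 16508, chromosome 6, 21215346 to 21729805), the A-type pore, it was -0.07 (SE 0.05). The M current gene Kcnq3 had 0.08 (SE 0.09), Kcnmb4 0.07 (SE 0.08) and Kcnn3 0.01 (SE 0.07). Over all described genes, the 95% interval of the genotype effect lay within a 1.1-fold difference either way for 11 and within 1.5-fold for 66 of the 76. For the other genes the data leave larger differences possible.

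Genes whose products work with potassium channels or move potassium but are not named Kcn were read in the same fit. Of 33 such genes 32 were tested, and 0 were called in the edgeR quasi-likelihood F test. At an unadjusted p under 0.05, where 3.87% of all tested genes were higher in N/- mice, there were 3, all higher. Among them were Dpp10, an auxiliary subunit of Kcnd channels (log2 fold change 0.19, SE 0.08), and Lrrc55, a gamma subunit of Kcnma1 channels (0.21, SE 0.08). The median of the list was 0.03, with 21 above 0 and 11 below.

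The marker lists of cell types were read by genotype in the same fit, in which no listed marker passed the adjustment. Of the 14 cortical glutamatergic markers 13 were higher in N/- mice, with a median log2 fold change of 0.32 and 4 at an unadjusted p under 0.05. Their summed level was 448 to 1807 CPM in N/- and 508 to 1094 CPM in N/N mice, and all 14 were tested. Of the 18 projection neuron markers 17 were lower in N/- mice, with a median of -0.14, at 10639 to 20318 CPM in N/- and 14826 to 21023 CPM in N/N mice, and 4 of the lower ones had an unadjusted p under 0.05. All 6 markers of projection neurons with the dopamine receptor D1, and all 6 of those with D2, were lower in N/- mice, 2 of each at that level. Of 8 interneuron markers 2 were higher and 6 lower in N/- mice, with 1 and 3 at that level. All 8 endothelial and mural markers were lower, 3 of them at that level, and all 6 microglial markers were lower, with 0 at that level. For myelin 8 markers were higher and 4 lower, for astrocytes 4 and 2, for oligodendrocyte precursors 1 and 3, and for thalamus 4 and 1, with 0 at that level. Of the 5 choroid plexus markers 4 were higher, 1 of them at that level. Of all 16702 tested genes, 647 were higher and 394 lower in N/- mice at that level. Slc17a7, 1 of the cortical markers, ran from 200 to 1103 CPM over all mice, and a punch can hold some cortical tissue. In RNA from a whole punch, fewer cells of a type, less RNA per cell and a different share of cortex cannot be told apart. How much cortex each punch held was not tested. The part of these markers in the genotype differences was examined only through the covariate fits that follow.

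With the mean log2 level of the cortical markers as a covariate, the 14 genes were all still higher in N/- mice, 13 of them by a smaller amount. At an unadjusted p under 0.05 there were then 5 of the 76 described genes, all among the 14. With the projection neuron markers as a covariate there were 7, of which 6 were among the 14. All were higher in N/- mice. Under both covariates these held Kcnj3, Kcnb2, Kcnab3, Kcnh7 and Kcnh5. Kcnj3 had a log2 fold change of 0.23 (SE 0.07) with the cortical covariate, against 0.43 without it. Kcnj6 had 0.13 (SE 0.12) and Kcnj9 0.03 (SE 0.04) with that covariate. Kcnh5 was the exception with a larger value, 0.29 (SE 0.09) with either covariate. None passed the adjustment, and the shares of all tested genes in these covariate fits are not given here. Without mice 4 and 16, N/- mice at opposite ends of the cortical marker range, all 14 kept an unadjusted p under 0.05. Mice 9, 5 and 8, N/- mice with the next highest cortical marker levels after mouse 4, stayed in that fit. It therefore cannot show whether the 14 depend on N/- mice with high cortical marker levels.

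By sex, no described gene passed in the edgeR quasi-likelihood F test, where 18 of all tested genes did (0.108%). The 16 females here include mouse 3, whose Xist count goes against its label, and without it 0 described genes passed as well. DESeq2 and limma voom called 0 of the described genes as well. Among the described genes only Kcnma1 had an unadjusted p under 0.05 by edgeR, against 5.33% of all tested genes. DESeq2 gave 5 and limma voom 4 at that level, all lower in males. Shares of all tested genes in these 2 tools are not given here, so their counts are not set against a background. Kcnma1 had 53.9, 72.5 and 94.4 CPM as the lowest, median and highest of the males, and 62.1, 79.2 and 97.5 CPM in females. Its log2 fold change, male over female, was -0.13 (SE 0.05). Next by p on the lower side were Kcnip3, with 149 ± 11.1 CPM in males and 160 ± 15.5 CPM in females, and Kcna3, with 5.61 ± 0.994 CPM in males and 6.18 ± 0.932 CPM in females (SD, n = 16 each). On the higher side Kcna5 had 0.15 (SE 0.08), Kcnh2 0.08 (SE 0.05) and Kcnab3 0.19 (SE 0.14) as log2 fold changes, male over female, and none passed.

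The difference between the genotype effects of the sexes passed for 0 of all tested genes (0.0%) in the edgeR quasi-likelihood F test, by DESeq2 and by limma voom. At an unadjusted p under 0.05 there was 1 described gene in each of the 3 tools, with the share of all tested genes given for edgeR alone. In edgeR it was the silent subunit gene Kcng1, against 1.66% of all tested genes. Its log2 fold change, N/- over N/N, was 0.06 (SE 0.07) in males and -0.13 (SE 0.07) in females, a difference of 0.20 (SE 0.10). The next by p with a more positive effect in males were Kcnn3 (0.24, SE 0.13) and Kcnj12 (0.19, SE 0.10). With a more negative one they included Kcnk10 (-0.17, SE 0.17) and Kcnk6 (-0.10, SE 0.11).

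Many potassium channel genes varied between mice along with the marker levels, though the share of their spread that did so was not measured. The cortical and projection neuron scores are the mean log2 CPM of the markers of each list in a mouse, centred over mice, and a slope is the log2 change of a gene per log2 unit of the score, with batch, sex and genotype in the fit. On the cortical score 39 of the 76 described genes passed the 0.05 limit on adjusted p in the edgeR quasi-likelihood F test, against 17.9% of all tested genes. Of these 26 rose with the score, against 9.8% of all genes, and 13 fell, against 8.12%. On the projection neuron score 39 passed, against 19.9% of all tested genes, 15 rising (9.66%) and 24 falling (10.3%). Scores and genes were read from the same libraries.

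The 2 scores gave mirrored results. In 21 genes the level rose with the cortical score and fell with the projection neuron score, in 12 the opposite held, and no gene was called in the same direction on both. In all 45 were called on at least 1 score and 31 on neither. Each score was fitted alone, and the scores themselves ran opposite ways in the mice with the highest cortical scores. Mirrored signs were therefore likely beforehand and are no separate result. Calls on both scores were not counted over all tested genes, so the mirroring cannot be read as particular to potassium channel genes. Mice 4, 9, 5 and 8, all N/- mice of batch A, had the highest cortical scores, 1.16, 0.92, 0.70 and 0.59, and also the lowest projection neuron scores, -0.56, -0.55, -0.28 and -0.25. Mouse 16, also N/- and of batch A, had the lowest cortical score, -0.71.

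**Figure D4:**
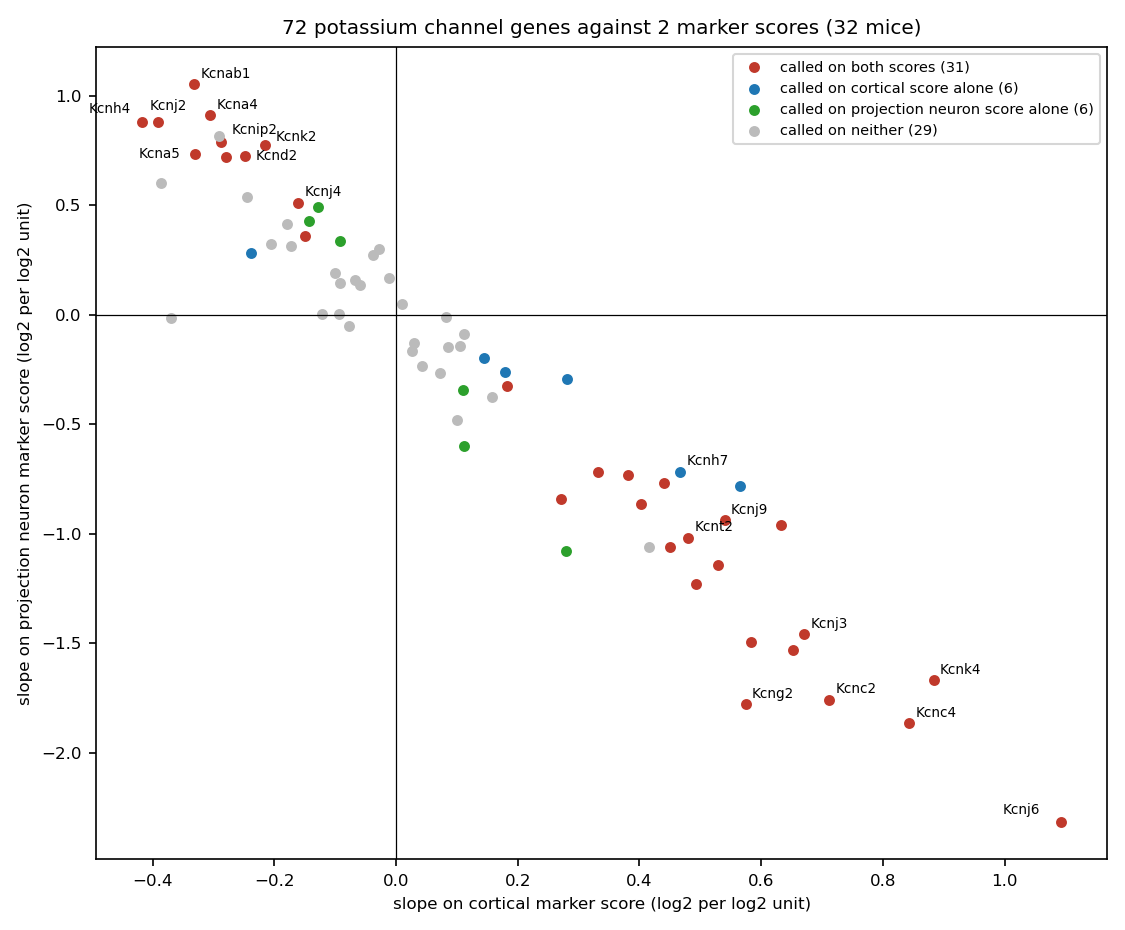
Slopes of 72 of the described genes on the cortical marker score (x axis) and on the projection neuron marker score (y axis), in log2 per log2 unit, coloured by which of them passed an adjusted p of 0.05. The 31 drawn genes called on both lie in the upper left and lower right, with Kcnj6 at the lower right end.

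Of the G protein-gated inward rectifier genes, Kcnj3, Kcnj6 and Kcnj9 passed on the cortical score. Kcnj6 had the steepest slope of the described genes, 1.09 (SE 0.13), beside 0.67 (SE 0.07) for Kcnj3 and 0.54 (SE 0.04) for Kcnj9, with adjusted p of 5.3e-08, 8.3e-09 and 2.2e-12 in that order in the edgeR quasi-likelihood F test. On the projection neuron score their slopes were -2.32 (SE 0.32), -1.46 (SE 0.18) and -0.94 (SE 0.16). Within batches the cortical slope of Kcnj6 came to 1.17 (SE 0.17) for A mice and 0.75 (SE 0.20) for B mice, that of Kcnj9 0.56 (SE 0.04) in A and 0.45 (SE 0.09) in B, and all 4 passed. That of Kcnj3 was 0.73 (SE 0.09) for A mice, which passed, and 0.35 (SE 0.12) for B mice, which did not. Kcnj5, the G protein-gated gene under 1 CPM, did not pass on the cortical score, with a slope of -0.20 (SE 0.23). Kcnj16 rose as well, by 0.49 (SE 0.10).

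The strong inward rectifiers went the other way. The level of Kcnj4 rose with the projection neuron score by 0.51 (SE 0.07) and had a slope of -0.16 (SE 0.04) on the cortical score. For Kcnj2 the slopes were 0.88 (SE 0.13) on the projection neuron score and -0.39 (SE 0.05) on the cortical score, and both passed in each batch. Kcnj12 rose with the projection neuron score alone, by 0.43 (SE 0.12). Kcnj10 and Kcnj11 passed on neither. Mouse 4, with the highest cortical score, had the lowest Kcnj2 level of all mice, 42.2 CPM, and the highest Kcnj3 level, 30.6 CPM.

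**Figure D5:**
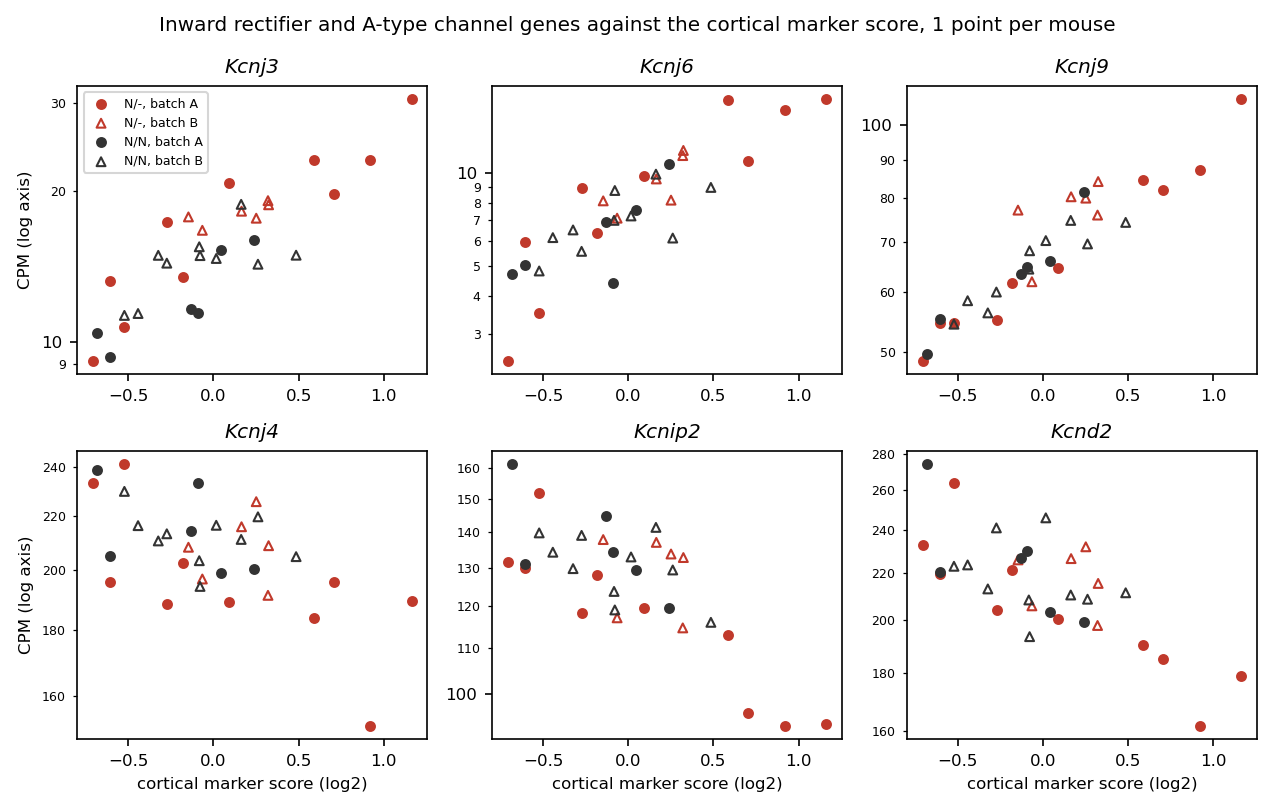
CPM on a log axis against the cortical marker score for 6 genes, 1 point per mouse, red for N/- and black for N/N, filled circles for batch A and open triangles for batch B. Kcnj3, Kcnj6 and Kcnj9 run upward and Kcnj4, Kcnip2 and Kcnd2 downward, and the mice with a score above 0.5 are all N/- mice of batch A.

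Part of the A-type channel genes and their partners moved with the projection neuron markers. Slopes on that score were 0.73 (SE 0.06) for Kcnd2, 0.79 (SE 0.07) for Kcnip2, 0.91 (SE 0.09) for Kcna4 and 1.05 (SE 0.07) for Kcnab1, the steepest rise of the described genes. The adjusted p in the edgeR quasi-likelihood F test were 1.6e-11, 2.1e-10, 1.1e-09 and 7.0e-13. All 4 passed in each batch, with 0.72 (SE 0.09) in A and 0.79 (SE 0.14) in B for Kcnd2. In the opposite direction were Kcnd3 at -0.84 (SE 0.11) and Kcnip4 at -0.33 (SE 0.10). Within batches Kcnip1 had -0.76 (SE 0.26) in A and -1.85 (SE 0.46) in B. Kcnab3 had -1.43 (SE 0.34) in A and -0.04 (SE 0.51) in B. The Kcnd pores and their auxiliary subunits thus fell on both sides.

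Of the Kv3 genes, Kcnc4 (0.84, SE 0.07) and Kcnc2 (0.71, SE 0.11) rose with the cortical score in both batches. Kcnc1, which is typical of fast-spiking interneurons, passed on the projection neuron score alone, at -0.34 (SE 0.12). In the Kv1 group Kcna6 rose with the cortical score by 0.33 (SE 0.04) and Kcna5 fell by 0.33 (SE 0.07), and Kcna1 and Kcna2 passed on neither. The Kv7 genes Kcnq3 and Kcnq5 rose with the projection neuron score by 0.72 (SE 0.20) and 0.36 (SE 0.09).

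Of the 9 silent subunits 5 rose with the cortical score and none fell, among them Kcnf1 at 0.38 (SE 0.04), Kcnv1 at 0.28 (SE 0.05) and Kcns3 at 0.63 (SE 0.08). Kcng2 had a slope of -1.78 (SE 0.37) on the projection neuron score. The two-pore leak genes Kcnk4 (0.88, SE 0.10), Kcnk12 (0.65, SE 0.12), Kcnk9 (0.53, SE 0.13) and Kcnk3 (0.40, SE 0.04) rose with the cortical score. Kcnk2, a mechanically gated leak channel, rose with the projection neuron score by 0.77 (SE 0.10). Among the EAG genes Kcnh4 had a slope of -0.42 (SE 0.09) on the cortical score, and Kcnh7 rose by 0.47 (SE 0.14). The auxiliary subunit Kcnmb4 rose by 0.44 (SE 0.05), and the small-conductance channel Kcnn3 fell by 0.24 (SE 0.07).

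The slopes leaned on batch A, which held the mice with the widest range of scores. Shares of all tested genes called in the following fits are not given here. The counts therefore cannot be read as particular to potassium channel genes. Of the 39 genes called on the cortical score, 35 had the same sign in both batches, and 31 also passed in A and 9 in B. Without mice 4 and 9, the farthest from the median score, 23 passed on the cortical score and 26 on the projection neuron score. The exceptions in sign included Kcnh7, Kcnk2 and Kcnk9. Of the 39 called on the projection neuron score, 36 had the same sign in both batches, with 31 also called in A and 11 in B. With both scores in 1 fit, 13 of the 39 on the cortical score and 14 of the 39 on the projection neuron score still passed with the same sign. On the projection neuron score Kcnd2 (0.85), Kcnip2 (0.81), Kcna4 (1.11) and Kcnj4 (0.69) were among those that passed in that fit, and on the cortical score Kcnj9 (0.63), Kcnj3 (0.44) and Kcnj6 (0.78) were.

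The slope signs and the genotype differences ran alike. Of the 26 genes that rose with the cortical score 25 were higher in N/- mice, and of the 13 that fell 11 were lower. The same shares over all tested genes were not computed, so this cannot be read as particular to potassium channel genes. Of the 14 genes with an unadjusted p under 0.05 by genotype, 10 rose with the cortical score, 9 fell with the projection neuron score, and 4 were called on neither. The 4 were Kcnb2, Kcnma1, Kcnh5 and Kcng4. The cortical score was 0.13 ± 0.54 in N/- and -0.13 ± 0.33 in N/N mice, and the projection neuron score -0.07 ± 0.24 in N/- and 0.07 ± 0.14 in N/N mice (SD, n = 16 each). These comparisons share their mice and are not independent.

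On the myelin score, the mean log2 level of 12 myelin markers, 1 described gene passed in the edgeR quasi-likelihood F test, against 3.41% of all tested genes. Kcnk13, a two-pore channel known from microglia, rose with it by 0.60 (SE 0.09), with 0.42 (SE 0.14) within batch A, which did not pass, and 0.73 (SE 0.13) within batch B, which did. Kcnk5, under 1 CPM, also passed, at 1.03 (SE 0.25). Kcnj10, which astrocytes and oligodendrocytes use, had a slope of 0.26 (SE 0.10) that did not pass. The 6 microglial markers summed to 364 to 503 CPM in N/- and 351 to 475 CPM in N/N mice.

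Between the batches, A over B, no described gene passed in the edgeR quasi-likelihood F test, where 27 of all tested genes did (0.162%). At an unadjusted p under 0.05 there were 8 described genes, against 10.9% of all tested genes. The smallest p were those of Kcnd1 (log2 fold change, A over B, -0.15, SE 0.05) and Kcnip3 (-0.12, SE 0.04).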

How the data were processed

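Per the labels, striatal libraries (stranded mRNA kit, 50 bp single-end reads) were sequenced in 64 runs, 2 for each of 32 mice. The authors deposited whole-number read counts per Entrez gene, with no normalization. FastQC 0.11.3, featureCounts of Subread, edgeR 3.8.6, limma 3.22.7 and mm10 are named per the submitters' processing notes; the series text names TopHat and HTSeq instead. No source at hand states how strand and multiply matching reads were handled. Labels, which were followed, give 16 mice per genotype, the series text 8.

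Both runs of a mouse were summed. Symbols came from the RefSeq table of GRCm38.p6 (25275 of 27179 identifiers matched; the other 1904 stayed in totals and tests) and exon lengths from GENCODE vM21. The 1 CPM limit used plain CPM; printed CPM per mouse and group are scaled by TMM, and means given beside that limit or for noncoding genes are plain. Genes passing filterByExpr were tested in edgeR 4.0.16 (R 4.3.3) with batch, sex and genotype as terms (for the difference between sexes, the 4 genotype and sex groups with batch); SE is the absolute log2 change over the square root of F. Scores used a prior count of 2. Alternatives used DESeq2 1.42.0 and limma 3.58.1 (voom). The code was checked on simulated counts. Precision is limited by 32 mice and totals of 28.8 to 33.8 M counts. No label names litters, so p-values measure the spread between these mice.

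Members, lists and tests were chosen with earlier results of these data known. Named genes were those with the smallest p in each direction (5 for genotype, 3 for sex and for the sex difference), the 4 steepest called slopes each way, the highest, lowest and most variable levels, and genes listed by role; others in the text were chosen after their values were seen. Results of some genes are not reported here, though they stayed in the fits and counts. The labels speak of technical quadruplicates; runs beyond these 64 were not analysed here.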

Additional observations from a re-analysis of the deposited data

Results flagged for a closer look

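Of 180 sets of 8 mice, each a gene named by rule in 1 genotype and sex group, 10 held a mouse whose gap to its nearest neighbour was more than 0.526 of the whole range. Chance alone flags about 1 in 20 such sets. Mouse 28, an N/N female of batch B, stood apart in 5 of the 10. It had the highest level of its group for Kcnmb4 (35.1 CPM, next 25.4 CPM), Kcnj10 (273 CPM, next 230 CPM) and Kcnk5 (1.08 CPM, next 0.731 CPM). It had the lowest for Kcna1 (197 CPM, next 235 CPM) and Kcnma1 (62.1 CPM, next 72.7 CPM).

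Mouse 25, an N/- female, had the highest Kcna1 level of its group, 298 CPM against 252 CPM for the next mouse. Mouse 2, an N/- male, had 3.86 CPM of Kcnj5, where the next mouse had 1.52 CPM. Mouse 16, an N/- male, had 25.7 CPM of Kcna5, where the next mouse had 20.8 CPM. Mouse 3, the library labelled as an N/N female whose Xist count goes against that label, had 239 CPM of Kcnh3, where the next mouse had 200 CPM. Mouse 26, an N/N male, had the lowest Kcnk13 level of its group, 9.57 CPM, where the next mouse had 12.1 CPM.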

How the results depend on the processing

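The count of 0 described genes called held under every alternative run for genotype, sex and the difference between the sexes. The 39 calls on the cortical score became 10 in batch B only, 20 with both scores in 1 fit and 23 without mice 4 and 9. The 39 on the projection neuron score became 11 in batch B only and 21 with both scores in 1 fit. The 1 call on the myelin score became 0 in batch A only. Shares of all tested genes called in these fits are not given here, so these falls cannot be read as particular to potassium channel genes. The count of described genes higher at an unadjusted p under 0.05 by genotype, 14 over all mice, was 8 in batch A only, 5 with the cortical and 7 with the projection neuron score as a covariate, of which 4, 5 and 6 were among the 14. It was 10 without mouse 3 and 18 without mouse 12, and no other mouse was left out singly. Shares of all tested genes at that level in the alternatives are not given here. The fits with both scores, without the 2 farthest mice without mice 4 and 16 and with cage as a fixed block, and all alternatives for the count of 14, were chosen after seeing the data.

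Of the genotype effects of named genes, 377 values kept their direction and 23 turned, all in genes that did not pass. In batch B only, log2 values turned to 0.0040 for Kcnh4, 0.011 for Kcnh3, 0.016 for Kcnj2, 0.027 for Kcnab1 and -0.0072 for Kcnn3. In batch A only they turned to -0.065 for Kcnj11, -0.065 for Kcna1, -0.019 for Kcna2 and -0.027 for Kcnq3. With the cortical covariate they turned to 0.080 for Kcnj2 and -0.059 for Kcnmb4, and with the projection neuron covariate to 0.095 for Kcnj2, 0.040 for Kcna4, 0.024 for Kcnab1, 0.026 for Kcnd2 and -0.039 for Kcnmb4. Kcnj2 turned to 0.00087 without mouse 3. Kcnj11 turned to -0.0059 with no batch term, -0.030 in the first runs and -0.0040 without mice 4 and 16. The sex effect of Kcnab3 turned to -0.044 in batch B. The difference between the sexes turned to 0.016 for Kcnk10 in the second runs and to 0.078 for Kcnk6 in batch A. The cortical slope of Kcnab1 turned to 0.18 with both scores in 1 fit. The causes were not tested. Replicate numbers are not shared between the genotypes, but 10 cages held both. With cage as a fixed block over their 21 mice, 0 described genes were called, and 5 were higher at an unadjusted p under 0.05, all among the 14. The log2 values of all 14 stayed above 0, and those of Kcnj2, Kcna4 and Kcnmb4 turned to 0.092, 0.015 and -0.015. With cage as a random effect in limma voom 0 were called, with 10 higher and 1 lower at that level.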
